A study of Mus musculus with 12 samples.

Results

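Expression in mouse kidney is described here for 8 genes of cholesterol synthesis, cholesterol export and lipid storage: Hmgcs1, Sqle, Srebf2, Insig1, Abca1, Fasn, Plin2 and Cd36. They were taken by gene symbol, and all 8 were found among the 40213 symbols of the count files and among the 17841 genes that passed the filter on low counts. RNA from whole kidneys of C57BL/6 mice was sequenced in 12 libraries, in 3 groups of 4 biological replicates. Control mice received saline by intraperitoneal injection on a normal diet, and mice with chronic kidney disease (CKD) received saline by the same route on a diet with 2% adenine, which forms crystals that injure the tubules. The colchicine mice received an adenine diet and colchicine, an alkaloid that binds tubulin, at 0.3 mg/kg per day intraperitoneally. The labels give 2, 3, 4 and 5% adenine for colchicine replicates 1, 2, 3 and 4. Only replicate 1 therefore had the CKD diet as labelled, and in replicates 2 to 4 colchicine and the labelled adenine cannot be told apart. The design text describes 1 adenine model for both adenine groups, and the sources used here do not settle whether the diets differed as labelled, so values that use these percentages rest on the labels. The sources used here do not give age, sex or time on the diet. The labels name no animals, and each p-value reflects only how far these samples spread.

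Cells make cholesterol from acetyl-CoA through the mevalonate pathway, and the transcription factor SREBP-2 raises the genes of that pathway when sterols in the endoplasmic reticulum run low. When sterols are plentiful, INSIG proteins hold SREBP-2 and its escort SCAP in the endoplasmic reticulum, and liver X receptors (LXR) raise genes that export cholesterol. In the kidney the proximal tubule takes up and burns fatty acids, surplus fatty acids are stored as triglyceride in lipid droplets coated by perilipins, and macrophages take up lipid through scavenger receptors.

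Levels are counts per 1000000 (CPM) with TMM scaling (a trimmed mean that matches libraries on the bulk of their genes), and they are compared between samples, never between genes. Library totals ran from 22.2 M to 38.3 M counts (M, units of 1000000), and the 8 genes had between 419 and 14029 counts per library. The 13 mitochondrial protein-coding transcripts took 40.8 to 45.9% of the counts in control, 16.5 to 17.0% in CKD and 14.3 to 21.3% with colchicine. Scaling by library totals alone moved the median log2 fold change of all genes from 0.04 to 1.05 for CKD against control. For colchicine against control the median moved from 0.10 to 1.14. Upper-quartile scaling moved these medians to 0.17 and 0.30. The part of the mitochondrial share in these shifts was not tested. Changes are given relative to the TMM scale. Without colchicine replicate 1, 6401 genes were called between colchicine and CKD, against 2682 with it. Colchicine replicate 4 had the highest mitochondrial share of the colchicine libraries, 21.3%. Of the 6 proximal tubule markers, 6 fell in CKD, and their summed level was 7596 to 8188 CPM in control, 577 to 799 CPM in CKD and 333 to 669 CPM with colchicine. The 6 macrophage markers rose, from 72.7 to 85.3 CPM in control to 724 to 743 CPM in CKD and 576 to 771 CPM with colchicine. In whole kidney, fewer cells of a type and less RNA per cell cannot be told apart.

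The promoters of Hmgcs1, Insig1, Srebf2 and Abca1 are printed here. In CKD, Hmgcs1 and Insig1 fell, Abca1 rose and Srebf2 did not pass the test. Each run is the 250 bases before the gene's start in RefSeq's GRCm38.p6 table, 5′ to 3′ on the gene's strand, and 7 of the 8 genes were in that table. The counts were made on GRCm39 and carry no coordinates. Capitals mark the core of the sterol regulatory element (TCACNCCAC), the CCAAT box (CCAAT, or ATTGG on the other strand) and the E-box (CACGTG), which can also be held within longer motifs. GC boxes (GGGCGG) were searched as well and stay in lower case.
Hmgcs1, chr13:119690101-119690350, plus strand: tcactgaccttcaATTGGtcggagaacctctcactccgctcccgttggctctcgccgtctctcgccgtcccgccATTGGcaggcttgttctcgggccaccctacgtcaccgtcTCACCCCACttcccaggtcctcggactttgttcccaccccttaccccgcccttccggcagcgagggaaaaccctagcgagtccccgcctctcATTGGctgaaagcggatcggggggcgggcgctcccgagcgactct
Insig1, chr5:28071162-28071411, plus strand: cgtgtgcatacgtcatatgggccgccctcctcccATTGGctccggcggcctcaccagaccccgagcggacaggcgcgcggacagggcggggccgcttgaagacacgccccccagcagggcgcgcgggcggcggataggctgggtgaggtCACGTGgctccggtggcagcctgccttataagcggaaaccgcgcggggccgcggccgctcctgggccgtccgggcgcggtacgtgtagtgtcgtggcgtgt
Srebf2, chr15:82147019-82147268, plus strand: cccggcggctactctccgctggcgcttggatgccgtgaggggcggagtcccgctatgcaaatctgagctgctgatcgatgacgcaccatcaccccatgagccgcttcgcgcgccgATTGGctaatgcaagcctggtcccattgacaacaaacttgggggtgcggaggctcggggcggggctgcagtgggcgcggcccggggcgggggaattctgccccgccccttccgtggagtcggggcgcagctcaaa
Abca1, chr4:53159896-53160145, minus strand: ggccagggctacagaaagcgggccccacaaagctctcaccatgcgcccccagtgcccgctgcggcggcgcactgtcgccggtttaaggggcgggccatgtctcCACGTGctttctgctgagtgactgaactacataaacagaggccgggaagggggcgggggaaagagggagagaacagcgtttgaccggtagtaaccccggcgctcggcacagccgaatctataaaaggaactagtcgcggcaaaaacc
The Hmgcs1 window held the sterol core as TCACCCCAC 137 bases before the start, with CCAAT boxes at 237, 176 and 45 bases. Of all 32851 promoters of the table, 1.05% held the sterol core on either strand, 33.8% a CCAAT box, 32.7% a GC box and 6.02% an E-box. Insig1 held an E-box at 101 bases and a CCAAT box at 216 bases, Srebf2 a CCAAT box at 135 bases, and Abca1 an E-box at 147 bases and no CCAAT box. Among the 15 cholesterol synthesis enzymes present in the table, Hmgcs1 was the only gene with these letters of the sterol core in its window. A match is a run of letters and was not tested for binding, and its absence says only that the letters are not in the window.

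In CKD, the cholesterol synthesis gene Hmgcs1 was 3.99-fold lower and the fatty acid receptor gene Cd36 7.25-fold lower than in control, Insig1 was 2.10-fold lower, and the exporter gene Abca1 was 4.41-fold higher. Plin2 rose 1.36-fold, Sqle fell 1.31-fold, a direction that turned under library totals alone, and Srebf2 and Fasn did not pass the test. In all, 2 of the 8 genes rose and 4 fell, so 6 of 8 were called, where 67.4% of all genes tested were called (34.1% higher and 33.4% lower), a share close to theirs. Scaling by library totals alone gave 4 higher and 2 lower of the 8. Upper-quartile scaling gave 2 higher and 3 lower of the 8, as did a fit with no filter on low counts. Their median log2 fold change was -0.47, against 0.04 over all genes tested. Calls are at a Benjamini-Hochberg adjusted p below 0.05 over all genes tested, by edgeR's quasi-likelihood test.

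With colchicine, Hmgcs1 was 1.52-fold lower, Cd36 1.86-fold lower and Abca1 1.32-fold lower than in CKD, and the other 5 genes did not pass the test. None of the 8 rose. Of all genes tested, 15.0% were called in this comparison (6.79% higher and 8.24% lower), and the median log2 fold change of the 8 was -0.27, against 0.03. Hmgcs1 and Cd36 were already low in CKD, so their lower level with colchicine lay farther from control, while that of Abca1 lay nearer to control. With 1 library left out, the Abca1 call against CKD was lost in 7 of 8 fits, and those of Hmgcs1 and Cd36 in none. This comparison uses the same CKD libraries as the one above, so the 2 are not independent. Against control, colchicine libraries had 1 higher gene (Abca1) and 4 lower genes (Hmgcs1, Sqle, Insig1 and Cd36), where 70.5% of all genes were called (37.1% higher and 33.4% lower). That split was 2 higher and 4 lower under upper-quartile scaling, and 3 higher and 2 lower under library totals alone.

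**Figure D1:**
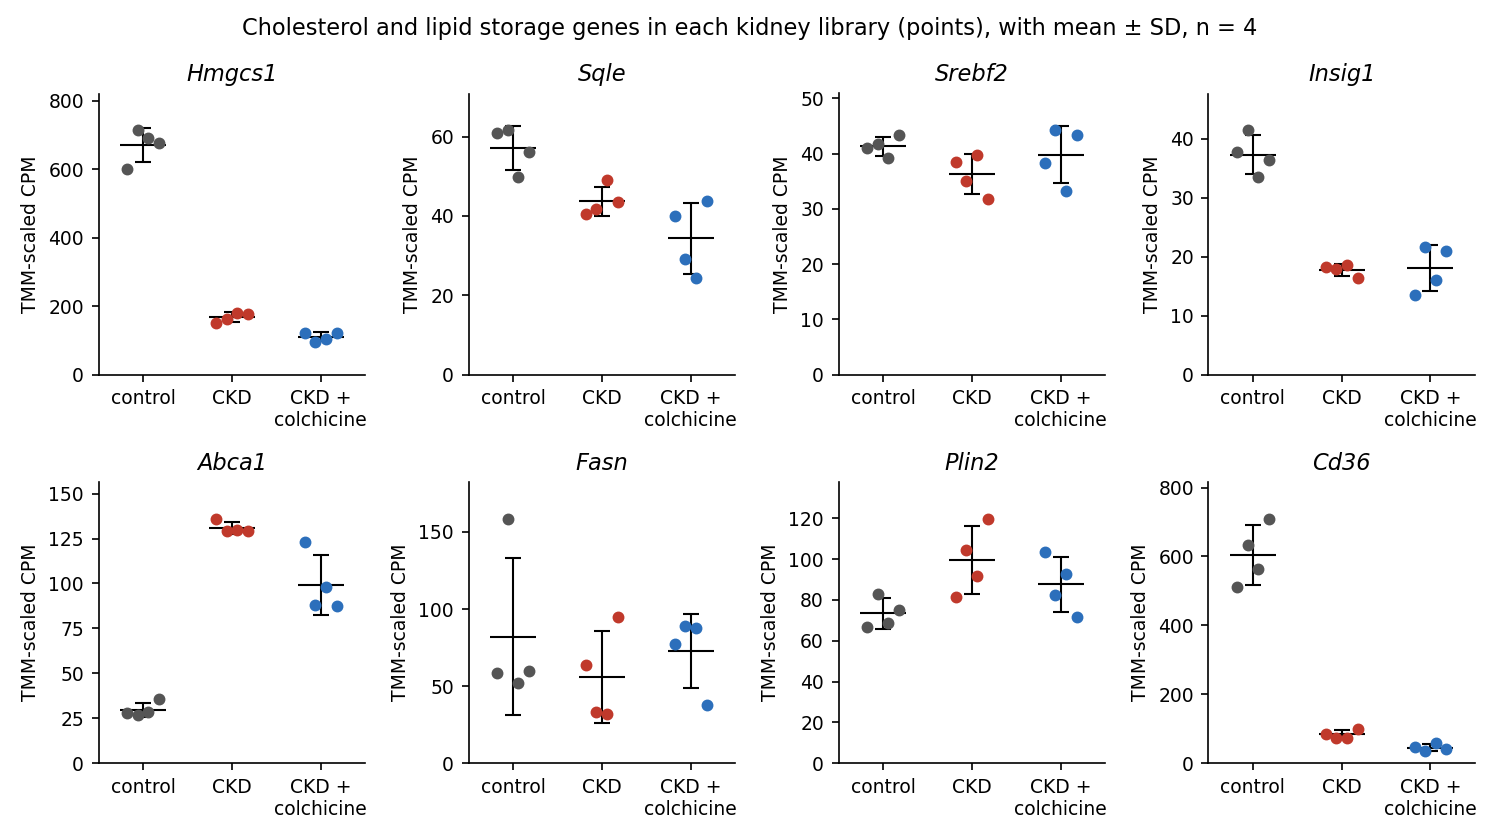
Levels of the 8 genes in each of the 12 kidney libraries, in TMM-scaled CPM on linear axes that start at 0; points are libraries and black bars the mean ± SD of 4. Hmgcs1, Insig1 and Cd36 are low in both adenine groups and Abca1 is high in both, while the Fasn points of the groups overlap.

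**Figure D2:**
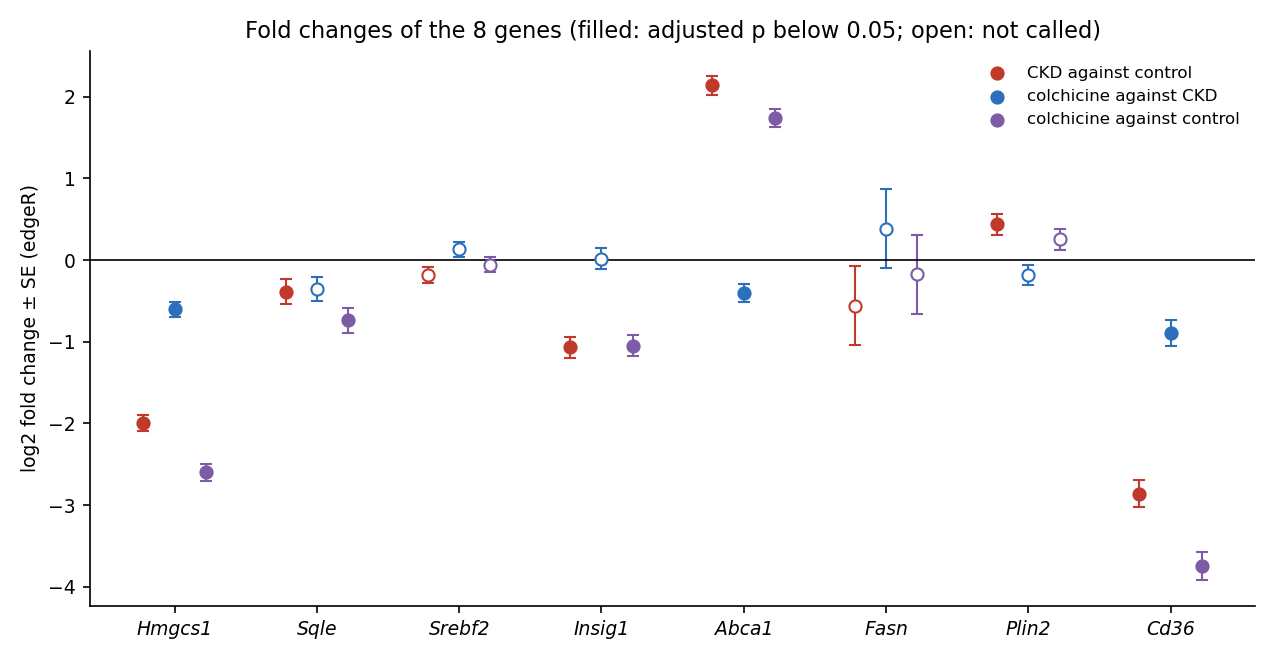
Log2 fold change with its standard error for each gene in the 3 comparisons (edgeR; filled points passed an adjusted p of 0.05, open points did not). Hmgcs1 and Cd36 lie below 0 in all 3, Abca1 lies above 0 against control and below 0 for colchicine against CKD, and Fasn has the widest errors; under scaling by library totals alone, Sqle, Srebf2 and Fasn lie above 0 against control.

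Hmgcs1 encodes the cytosolic HMG-CoA synthase, an early enzyme of cholesterol synthesis. It stood at 599.8, 715, 691 and 676 CPM in control replicates 1 to 4, at 149.8, 163, 180.5 and 178 CPM in CKD and at 122, 94.6, 104 and 121 CPM with colchicine. Every CKD library was below every control library, and every colchicine library below every CKD library. The log2 fold change was -2.0 ± 0.10 for CKD against control (SE, edgeR adjusted p = 1.24e-10) and -0.60 ± 0.10 for colchicine against CKD (adjusted p = 0.00211), with means of 670.3 ± 49.6, 168 ± 14.2 and 111 ± 13.5 CPM (SD, n = 4). Colchicine libraries were 6.07-fold below control (log2 fold change -2.60 ± 0.10, adjusted p = 8.2e-12). With only colchicine replicate 1, labelled 2% adenine as in CKD, the log2 fold change against CKD was -0.47. That fit holds 1 colchicine library, so it gives no spread within the colchicine group.

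Sqle encodes squalene epoxidase, the enzyme that commits squalene to sterols. Its levels were 60.9, 61.6, 49.7 and 56.1 CPM in control, 40.6, 41.7, 49.0 and 43.6 CPM in CKD and 39.9, 29.2, 24.4 and 43.7 CPM with colchicine. Control replicate 3 was the lowest control and CKD replicate 3 the highest CKD library, so these groups came close without overlapping, while the CKD and colchicine groups overlapped. The fall in CKD was 0.39 on the log2 scale (log2 fold change -0.39 ± 0.15, edgeR adjusted p = 0.0349). It lost its call without control replicate 1, 2 or 4 or CKD replicate 1, 2 or 4 (adjusted p up to 0.0858), and under upper-quartile scaling (-0.25, adjusted p = 0.129), and it was 0.63 under library totals alone. Between colchicine and CKD the log2 fold change was -0.35 ± 0.15 (adjusted p = 0.121), and it passed only without colchicine replicate 4 (-0.50, adjusted p = 0.0379). Against control, Sqle fell with colchicine by 0.74 on the log2 scale (SE 0.15, adjusted p = 0.000519), a value that was 0.29 under library totals alone.

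Of the 20 cholesterol synthesis enzymes, Hmgcs1 and Sqle included, 16 fell in CKD, none rose and 4 were not called, so 80% were called where 67.4% of all genes were (33.4% lower), with a median log2 fold change of -1.06. Upper-quartile scaling left 13 lower and none higher, as did a fit with no filter on low counts, and library totals alone gave 9 lower and 8 higher. Cyp51, the lanosterol demethylase, fell from 282 ± 23.5 to 33.7 ± 3.54 CPM (log2 fold change -3.06 ± 0.13, edgeR adjusted p = 3.46e-11). Idi1, the isopentenyl diphosphate isomerase, fell from 176 ± 21.5 to 19.8 ± 1.32 CPM. The 4 enzymes that were not called were Pmvk (log2 fold change 0.07), Fdps (0.18), Fdft1 (0.02) and Msmo1 (-0.28). Idi1 and these 4 were named after their values were seen. The proximal tubule markers fell in the same libraries (summed level at most 799 CPM in CKD, at least 7596 CPM in control), and their part in the fall of the enzymes was not tested.

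Between colchicine and CKD, 4 of the 20 enzymes fell (Acat2, Hmgcs1, Nsdhl and Sc5d), none rose and 16 were not called (20% called, against 15.0% of all genes), with a median of -0.16. Upper-quartile scaling and library totals alone each gave 1 higher and 3 lower, and a fit with no filter on low counts gave none higher and 3 lower. Nsdhl, a sterol dehydrogenase, fell from 31.0 ± 3.25 to 21.2 ± 2.58 CPM (log2 fold change -0.55 ± 0.10, edgeR adjusted p = 0.00411). Acat2, the thiolase of the pathway's first step, had a log2 fold change of -0.44 (adjusted p = 0.0148), which lost its call without CKD replicate 3 or colchicine replicate 2 (adjusted p up to 0.0544). Acat2 has a closely similar paralog, and how shared reads were divided between them was not measured here, so its value is uncertain. Sc5d, a sterol desaturase, had -0.31 (adjusted p = 0.0483) and kept its call only without colchicine replicate 1 or 4 (adjusted p up to 0.141 without another library). Cyp51 stood at 31.8 ± 6.22 CPM with colchicine and did not differ from CKD by the test (adjusted p = 0.647). Against control, 16 enzymes were lower with colchicine and only Fdps was higher (10 lower and 7 higher under library totals alone), and the call of Fdps was lost without control replicate 3 or 4 or colchicine replicate 2 or 4 (log2 fold change 0.29 to 0.36). Acat2, Sc5d and Fdps were named after their values were seen.

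**Figure D3:**
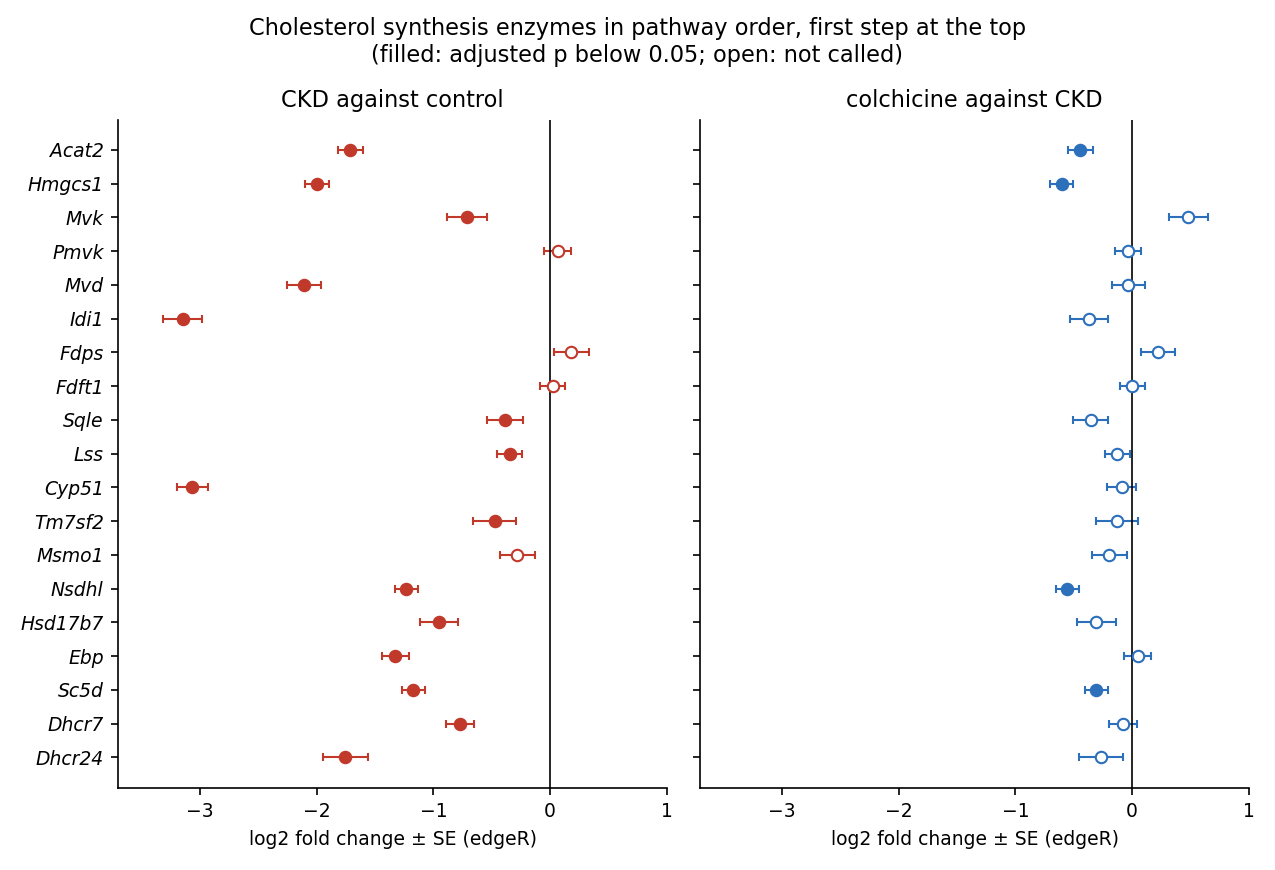
Log2 fold change ± SE of cholesterol synthesis enzymes in pathway order (1 of the 20 is not drawn) for CKD against control (left) and colchicine against CKD (right); filled points passed an adjusted p of 0.05. Idi1 and Cyp51 lie near -3 in CKD, Pmvk, Fdps and Fdft1 lie near 0, and most points on the right are open; under library totals alone 8 of the 20 enzymes were higher and 9 lower in CKD.

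Srebf2 encodes SREBP-2, the transcription factor of the cholesterol synthesis genes. It measured 41.0, 41.8, 39.2 and 43.4 CPM in control, 38.5, 35.1, 39.8 and 31.8 CPM in CKD and 38.3, 44.2, 33.2 and 43.4 CPM with colchicine. The 3 groups overlapped. Its log2 fold change was -0.19 ± 0.10 in CKD (edgeR adjusted p = 0.101), 0.13 ± 0.10 for colchicine against CKD (adjusted p = 0.349) and -0.06 ± 0.10 for colchicine against control (adjusted p = 0.618). Under library totals alone the values against control turned to 0.82 (adjusted p = 1.09e-06) and 0.98 (adjusted p = 1.33e-07) and were called as higher, while the median of all genes stood at 1.05 and 1.14. SREBP-2 is also controlled by cleavage of the protein, which RNA does not show.

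Insig1 encodes a sterol-sensing protein that retains SREBP-2 and is itself raised by it. Its levels were 37.8, 41.5, 33.5 and 36.4 CPM in control, 18.3, 17.9, 18.7 and 16.3 CPM in CKD and 13.6, 21.7, 16.0 and 20.9 CPM with colchicine. All 8 adenine libraries lay below all 4 controls, and the colchicine libraries lay on both sides of the CKD libraries. The log2 fold change was -1.07 ± 0.13 in CKD (edgeR adjusted p = 2.78e-06) and -1.05 ± 0.13 for colchicine against control (adjusted p = 2.86e-06), and 0.02 ± 0.13 for colchicine against CKD (adjusted p = 0.935). Under library totals alone the values against control were -0.06 (adjusted p = 0.682) and -0.02 (adjusted p = 0.911), while the median of all genes stood at 1.05 and 1.14.

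Of the 14 genes of sterol sensing and uptake, Srebf2 and Insig1 included, 5 rose and 4 fell in CKD and 5 were not called (median 0.13), and the 64.3% called were close to the 67.4% of all genes. Upper-quartile scaling gave 8 higher and 4 lower, and library totals alone 12 higher and none lower. Stard4, a sterol carrier, fell from 54.0 ± 2.60 to 24.7 ± 1.39 CPM (log2 fold change -1.13, edgeR adjusted p = 1.47e-07), and Scap, the escort of SREBP-2, fell from 52.5 ± 4.23 to 33.4 ± 1.11 CPM, a log2 fold change of -0.66 that was 0.36 under library totals alone. Insig2, the second INSIG protein, also fell, from 38.8 ± 3.00 to 28.1 ± 1.68 CPM (-0.46, and 0.54 under library totals alone). Npc1, which moves cholesterol out of lysosomes, rose from 25.1 ± 1.23 to 48.6 ± 1.42 CPM, and Scarb1, the HDL receptor, from 15.6 ± 2.05 to 30.7 ± 1.14 CPM. Insig2 was named after its value was seen.

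With colchicine, 3 of these 14 genes were below CKD (Insig2, Mylip and Npc1), none was above and 11 were not called (21.4% called, against 15.0% of all genes), while library totals alone left 1 lower. Mylip, a ubiquitin ligase that LXR raises, fell from 73.7 ± 5.58 to 54.0 ± 6.87 CPM (log2 fold change -0.45, edgeR adjusted p = 0.0215), a call lost without CKD replicate 1 or 4 or colchicine replicate 2 or 4 (adjusted p up to 0.0672). Npc1 had -0.30 (adjusted p = 0.0228) and Insig2 -0.32 (adjusted p = 0.0318), and both kept their call only when colchicine replicate 1 was the library left out (adjusted p up to 0.0661 and 0.110 otherwise). With only colchicine replicate 1 the 3 values were smaller, at -0.24, -0.09 and -0.08 for Mylip, Npc1 and Insig2.

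Abca1 encodes the membrane transporter that hands cholesterol to apolipoprotein A-I, and LXR raises it. It stood at 27.7, 26.9, 28.7 and 35.7 CPM in control, at 136, 129, 130.0 and 129 CPM in CKD and at 123, 88.2, 98.1 and 87.6 CPM with colchicine. The CKD libraries lay close together and far above control, and all colchicine libraries lay between, with replicate 1 nearest to CKD. The log2 fold change was 2.14 ± 0.11 in CKD (edgeR adjusted p = 2.91e-10) and 1.74 ± 0.11 for colchicine against control (adjusted p = 2.12e-09). Colchicine libraries were below CKD by 0.40 on the log2 scale (log2 fold change -0.40 ± 0.11, adjusted p = 0.0246). This call was lost without any 1 of the 4 CKD libraries or colchicine replicate 2, 3 or 4 (adjusted p up to 0.0820), and without colchicine replicate 1 it was -0.52 (adjusted p = 0.000318). With only colchicine replicate 1, on the labelled CKD diet, the log2 fold change was -0.10. A slope on labelled adenine read at 2% gave -0.21 (edgeR adjusted p = 0.419). Under library totals alone the adjusted p was 0.0519. The macrophage markers rose in the same CKD libraries (6 of 6 called; 724 to 743 CPM against 72.7 to 85.3 CPM), and 3 of 6 (Adgre1, Csf1r and Cd14) were below CKD with colchicine; their part in the Abca1 result was not tested.

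Of the 17 genes of cholesterol efflux, esterification and LXR signalling, 15 were tested and all of these were called in CKD, 8 higher and 7 lower (median 0.91), where 67.4% of all genes were called (34.1% higher and 33.4% lower); Abcg5 and Abcg8 were too low to test. Library totals alone gave 10 higher and 2 lower. Apoe, the apolipoprotein that macrophages secrete with cholesterol, rose 15.4-fold, from 204 ± 35.5 to 3132 ± 195 CPM (log2 fold change 3.94 ± 0.20, edgeR adjusted p = 2.19e-10). The phospholipid transfer protein Pltp rose from 13.0 ± 0.834 to 72.2 ± 6.91 CPM. Nr1h3, which encodes LXR alpha, fell from 41.9 ± 3.72 to 14.1 ± 0.864 CPM (-1.58), and Nceh1, a cholesterol ester hydrolase, from 213 ± 17.5 to 70.5 ± 2.61 CPM (-1.59).

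With colchicine, 5 of the 15 were below CKD (Abca1, Lipa, Lpcat3, Nceh1 and Cyp27a1), none was above and 10 were not called (33.3% called, against 15.0% of all genes). Lipa, the lysosomal acid lipase, fell from 122 ± 2.78 to 82.8 ± 9.03 CPM (log2 fold change -0.55 ± 0.09, edgeR adjusted p = 0.00199). Lpcat3, a phospholipid acyltransferase, fell from 60.5 ± 1.64 to 45.8 ± 4.59 CPM (-0.40, adjusted p = 0.00735). Both calls held without any 1 library. Nceh1 had -0.44 (adjusted p = 0.0254), lost without CKD replicate 1, 3 or 4 or colchicine replicate 2 or 3 (adjusted p up to 0.0811). The sterol hydroxylase gene Cyp27a1, named with its value seen, had -0.38 (adjusted p = 0.0194), lost without CKD replicate 2, 3 or 4 or colchicine replicate 2 (adjusted p up to 0.0582). Apoe stood at 2399.5 ± 741 CPM with colchicine and did not pass the test (adjusted p = 0.139).

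Fasn encodes fatty acid synthase, which builds palmitate. Its levels were 58.2, 159, 52.2 and 59.6 CPM in control, 63.9, 33.2, 31.9 and 94.7 CPM in CKD and 77.2, 89.0, 87.4 and 37.6 CPM with colchicine. The groups overlapped, with control replicate 2 above every other library and CKD replicates 2 and 3 and colchicine replicate 4 the lowest of the 12. The log2 fold change was -0.56 ± 0.49 in CKD (edgeR adjusted p = 0.341), 0.38 ± 0.48 for colchicine against CKD (adjusted p = 0.606) and -0.18 ± 0.49 for colchicine against control (adjusted p = 0.759). Without control replicate 2 the values against control were -0.02 and 0.36. A difference was not detectable at this spread.

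The same libraries stood out in the adipocyte markers. The 6 markers summed to 13.3, 51.0, 22.7 and 18.7 CPM in control, to 26.3, 0.285, 0.863 and 40.4 CPM in CKD and to 26.5, 27.0, 41.4 and 2.96 CPM with colchicine. The libraries with the lowest sums, CKD replicates 2 and 3 and colchicine replicate 4, were those with the lowest Fasn, and control replicate 2 was highest in both. Adipoq, which encodes the adipocyte hormone adiponectin, ran from 0.0712 CPM in CKD replicate 2 to 23.1 CPM in control replicate 2, and Plin1, the perilipin of adipocytes, was at 0 in 2 libraries and Adrb3 in 1. None of the 5 markers tested was called in any of the 3 comparisons. Scd1, Thrsp and Acaca, which encode a desaturase, a lipogenic regulator and acetyl-CoA carboxylase, followed the same libraries. Scd1 was at 537 CPM in control replicate 2 and between 48.8 and 97.5 CPM in CKD replicates 2 and 3 and colchicine replicate 4. Thrsp was at 38.9 CPM in control replicate 2 and at 2.64, 2.41 and 2.40 CPM in those 3 libraries. These 3 genes were named after their values were seen, none was called in CKD, and the part of adipose tissue in the Fasn values was not tested.

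**Figure D4:**
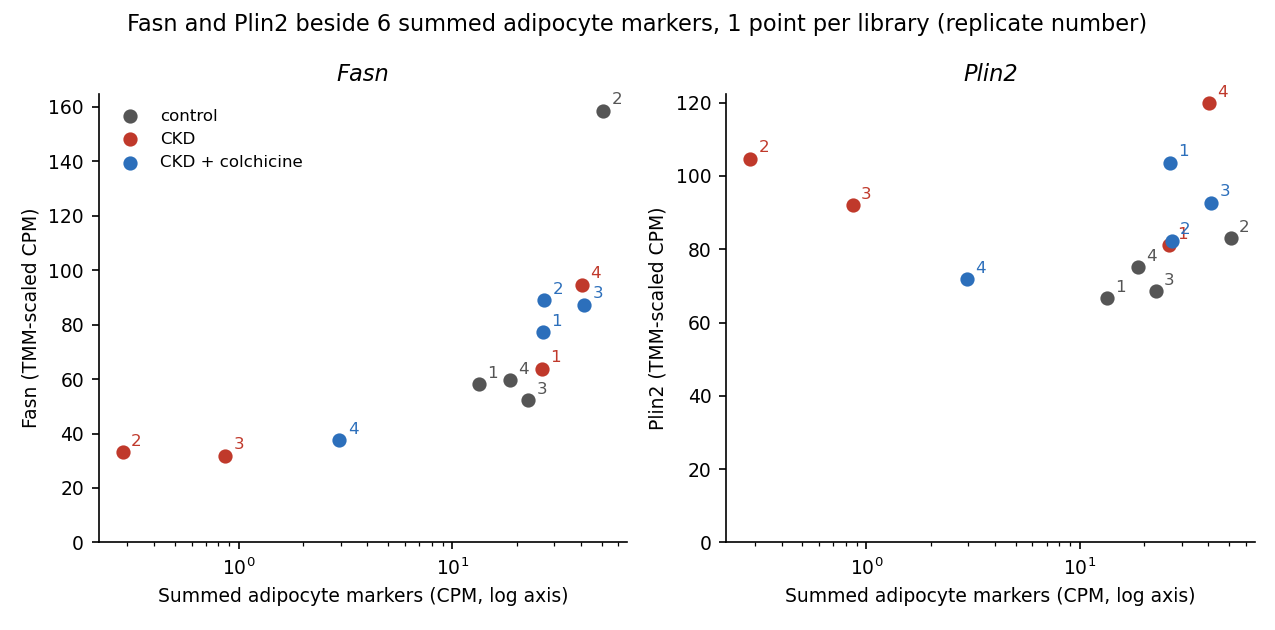
Fasn (left) and Plin2 (right) in TMM-scaled CPM against the summed level of 6 adipocyte markers in CPM on a log axis, with 1 point per library labelled by replicate number. The libraries with the lowest marker sums (CKD 2 and 3, colchicine 4) have the lowest Fasn, and control 2 is highest in both. Control 2 and CKD 4 are also the highest and colchicine 4 the lowest Plin2 of their groups, while Plin2 in CKD 2 and 3 lies above all controls.

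Of the 16 genes of fatty acid synthesis and desaturation, 8 fell in CKD, 1 rose and 7 were not called (56.2% called, against 67.4% of all genes; median -0.51), with 7 higher and 4 lower under library totals alone. Acss2, which makes acetyl-CoA from acetate, fell from 195 ± 20.4 to 23.4 ± 1.23 CPM (log2 fold change -3.06 ± 0.11, edgeR adjusted p = 5.01e-12), and malic enzyme Me1, a source of NADPH, from 885 ± 58.1 to 103 ± 10.8 CPM. The desaturase Scd2 rose from 89.7 ± 7.20 to 125 ± 12.8 CPM. Unlike Fasn, Acss2 was even across each group, at 169 to 213 CPM in control and 21.9 to 24.9 CPM in CKD. Srebf1, which encodes the transcription factor SREBP-1 of fatty acid synthesis, stood at 28.6 ± 3.25 and 33.2 ± 2.85 CPM (0.21, adjusted p = 0.0666); it was named after its value was seen and passed without control replicate 2 (0.30) or CKD replicate 4 (0.27).

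With colchicine, 5 of these 16 were below CKD (Acss2, Me1, Mlxipl, Fads2 and Elovl5), none was above and 11 were not called (31.2% called, against 15.0% of all genes). Acss2 fell to 13.9 ± 2.10 CPM (log2 fold change -0.76 ± 0.11, edgeR adjusted p = 0.000925) and Me1 to 67.5 ± 10.3 CPM (-0.61 ± 0.11, adjusted p = 0.00414), and both calls held without any 1 library. The desaturase Fads2 had -0.44 (adjusted p = 0.0101). Mlxipl, the carbohydrate-responsive transcription factor ChREBP, had -0.37 (adjusted p = 0.0215), lost without CKD replicate 3 or colchicine replicate 2 (adjusted p up to 0.0765). The elongase Elovl5 had -0.29 (adjusted p = 0.0278), kept only without CKD replicate 2 or colchicine replicate 1 (adjusted p up to 0.0928 otherwise). The last 3 were named after their values were seen.

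Plin2 encodes the perilipin that coats lipid droplets in most cells outside adipose tissue. It measured 66.7, 83.0, 68.5 and 75.2 CPM in control, 81.2, 105, 92.0 and 119.8 CPM in CKD and 104, 82.4, 92.7 and 71.8 CPM with colchicine. CKD replicate 1 lay below control replicate 2, so these groups overlapped, and the colchicine libraries overlapped both other groups. It rose in CKD from 73.4 ± 7.40 to 99.4 ± 16.7 CPM (log2 fold change 0.44 ± 0.13, edgeR adjusted p = 0.00703), and the call held without any 1 library. Between colchicine and CKD the log2 fold change was -0.18 ± 0.13 (adjusted p = 0.327). Between colchicine and control it was 0.26 ± 0.13 (adjusted p = 0.0865), and it passed without colchicine replicate 4 (0.30, adjusted p = 0.0478), with upper-quartile scaling (0.45) and by library totals alone (1.29). Within groups, control replicate 2 and CKD replicate 4 were highest and colchicine replicate 4 lowest both in Plin2 and in the adipocyte markers, whereas CKD replicates 2 and 3, with the lowest marker sums, stood at 105 and 92.0 CPM of Plin2, above all controls. The part of adipose tissue in the Plin2 values was not tested.

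Of the 22 genes of triglyceride synthesis and lipid droplets, 14 fell in CKD, 3 rose (Plin2, Plin3 and Hilpda) and 5 were not called (77.3% called, against 67.4% of all genes), with a median of -0.86, and library totals alone gave 8 higher and 6 lower. Hilpda, an inhibitor of triglyceride breakdown on the droplet, rose from 1.58 ± 0.409 to 4.25 ± 0.686 CPM (log2 fold change 1.42 ± 0.22, edgeR adjusted p = 3.8e-05). Plin3, another widely expressed perilipin and named after its value was seen, rose from 30.7 ± 2.39 to 38.7 ± 2.24 CPM. Gpam, the acyltransferase that starts glycerolipid synthesis, fell from 96.1 ± 4.82 to 31.7 ± 1.62 CPM, and Dgat2, which completes triglyceride, from 119 ± 10.1 to 23.6 ± 4.52 CPM.

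With colchicine, 1 of the 22 rose and 1 fell against CKD, and 20 were not called (9.09% called, against 15.0% of all genes). Dgat2 fell to 15.2 ± 1.65 CPM (log2 fold change -0.63 ± 0.12, edgeR adjusted p = 0.00625), a fold change that was -0.46 with only colchicine replicate 1. Mgll, the monoglyceride lipase, rose from 16.2 ± 3.13 to 25.9 ± 7.32 CPM (0.68, adjusted p = 0.0469), and its call was lost without CKD replicate 1, 2 or 3 or colchicine replicate 2 or 3 (adjusted p up to 0.133).

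Cd36 encodes a receptor that takes up long-chain fatty acids and oxidised lipoproteins, and it is made by tubule cells, endothelium, adipocytes and macrophages. It stood at 512, 634, 563 and 709.8 CPM in control, at 84.4, 74.2, 74.2 and 101 CPM in CKD and at 46.2, 34.4, 58.8 and 40.0 CPM with colchicine. No 2 groups overlapped, and the order was control, CKD, colchicine from high to low. The log2 fold change was -2.86 ± 0.16 in CKD (edgeR adjusted p = 1.15e-09), -0.89 ± 0.16 for colchicine against CKD (adjusted p = 0.00411) and -3.75 ± 0.17 for colchicine against control (adjusted p = 8.34e-11), a 13.5-fold lower level. With only colchicine replicate 1, which gives no spread within the colchicine group, the log2 fold change against CKD was -0.86. Macrophage markers moved opposite to Cd36 in CKD, and the fall of Cd36 was accompanied by that of the proximal tubule markers (6 of 6) and of 5 of 6 endothelial markers (653 to 741 CPM in control, 439 to 501 CPM in CKD). With colchicine, 3 of 6 proximal tubule markers fell against CKD (1 under upper-quartile scaling) and none of 6 endothelial markers was called (489 to 550 CPM). Of the macrophage markers, 3 of 6 (Adgre1, Csf1r and Cd14) also fell against CKD. None of the 5 adipocyte markers tested was called in CKD or between colchicine and CKD. The part of these marker lists in the Cd36 result was not tested.

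Of the 13 genes of fatty acid uptake and scavenger receptors, 6 fell, 3 rose and 4 were not called in CKD (69.2% called, close to the 67.4% of all genes; median -0.48), and library totals alone gave 7 higher and 4 lower. The scavenger receptor genes moved apart: Msr1, a class A receptor of macrophages, rose from 0.536 ± 0.181 to 33.4 ± 1.77 CPM (log2 fold change 5.94 ± 0.25, edgeR adjusted p = 3.53e-11) and Olr1, a receptor of oxidised LDL, from 0.187 ± 0.0782 to 9.65 ± 1.27 CPM, while Cd36 fell. Fabp3, a fatty acid binding protein, fell from 123 ± 6.59 to 25.3 ± 2.57 CPM. Slc27a2, a proximal tubule transporter of fatty acids, was lower in CKD, at 588 ± 53.1 against 5254 ± 276 CPM.

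With colchicine, Slc27a2 and Cd36 were below CKD, Gpihbp1 was above, and 10 of the 13 were not called (23.1% called, against 15.0% of all genes). Slc27a2 fell to 278 ± 122 CPM (log2 fold change -1.08 ± 0.24, edgeR adjusted p = 0.0116), with 438, 148, 234 and 291 CPM in replicates 1 to 4, all below the 532 CPM of the lowest CKD library. Gpihbp1, which anchors lipoprotein lipase in capillaries, rose from 13.3 ± 1.49 to 21.1 ± 3.78 CPM (0.66 ± 0.12, adjusted p = 0.00489). Msr1 and Olr1 stood at 33.8 ± 9.16 and 8.22 ± 1.13 CPM and did not pass (adjusted p = 0.947 and 0.245).

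Over all 6 lists, 55 of the 100 genes tested fell in CKD, 20 rose and 25 were not called (52 higher and 25 lower under library totals alone), and with colchicine 20 were below CKD, 2 above and 78 not called. The shares called were 75% and 22%, against 67.4% and 15.0% of all genes tested. Their median log2 fold changes were -0.53 and -0.08, against 0.04 and 0.03 over all genes tested. These lists had been chosen with results of these libraries known, so their direction is not independent evidence.

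The genes with the profiles most like each of the 8 were found by the mean absolute difference in log2 CPM over the 12 libraries, after centring on control, among 14027 genes. For Hmgcs1 they were Reps2 (0.083) and Mtor (0.090), and for Abca1 Rassf2 (0.095) and Itga4 (0.10), an integrin of leukocytes. For Cd36 they were Acss2 (0.162), which also stands in the fatty acid synthesis list, and Sypl2 (0.186). The nearest profiles to Fasn were those of Trarg1 (0.248) and Acaca (0.264), the largest distances of the 8. For Sqle they were Gpt2 and Tfpi2, for Srebf2 Rpap1 and Tmem231, for Insig1 St3gal3 and Epm2a, and for Plin2 Lrig2 and Zfp142, at distances from 0.058 to 0.109.

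Markers of the adrenal cortex and of hepatocytes, which also handle cholesterol, were read in the same libraries. The 6 adrenal cortex markers summed to at most 3.37 CPM in any library, with Cyp11b1 at 0 in 8 libraries and Nr5a1 in 9. Only Star, the steroidogenic carrier, passed the filter on low counts. It rose in CKD from 1.70 ± 0.356 to 2.47 ± 0.313 CPM (log2 fold change 0.54, edgeR adjusted p = 0.0264), though the groups overlapped. The hepatocyte markers summed to 481 to 775 CPM in control, 183 to 207 CPM in CKD and 56.9 to 101 CPM with colchicine, most of it Ttr. Control means were 415 CPM for Ttr and 158 CPM for Apob. The other markers had control means of 7.96 CPM (Alb), 1.37 CPM (Serpinc1), 0.155 CPM (Ahsg) and 0.0462 CPM (Hamp). Hamp and Ahsg were at 0 in 2 libraries each.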

How the data were processed

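The 12 files hold 1 value per gene symbol and library, which are the authors' deposited estimated counts (expected counts) in whole numbers; the 28 values of 1000000 or more are all multiples of 10. The submitters' processing notes name fastp, STAR, Salmon and the build GRCm39, and the sources used here give neither versions nor annotation. Per the labels' protocols, RNAiso Plus served for extraction and the CORALL kit for library preparation. Counts were read as whole numbers, kept by filterByExpr (minimum count 10) and scaled by TMM. With edgeR 4.0.16 in R 4.3.3, 3 group means were fitted to all 12 libraries (robust quasi-likelihood F test, two-sided). Adjustment was by Benjamini-Hochberg over the 17841 of 40213 genes tested, called below 0.05. SD is over 4 libraries and SE belongs to the log2 fold change. The model was tested on simulated counts in which 67, 67 and 66 of the 17841 genes were changed 1.5-fold, 2-fold and 4-fold. Across the 3 comparisons it recovered 46.3 to 51.5% of simulated 1.5-fold changes and 62.7 to 80% of 2-fold changes. At 4-fold it recovered 84.6 to 95.5%. False calls numbered 4 to 12 per comparison. Far fewer genes were changed there than were called in the data. The adjustment was therefore stricter, and these rates do not measure recovery in the data. A gene that was not called can still have changed. Depth was 22.2 M to 38.3 M counts per library (M, units of 1000000).

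Groups came from the sample titles; every library is labelled batch 1. The alternatives were RLE, upper-quartile and library-total scaling, no filter or a CPM of 1 in 4 libraries, mitochondrial transcripts left out, only the 8 libraries compared, limma-voom 3.58.1, DESeq2 1.42.0, a replicate block, the labelled adenine (a slope read at 2%, or only the 2% library) and each library left out in turn. The 8 genes, the 6 pathway lists and the 6 marker lists were chosen with earlier results of these data known. Named were the 8 genes, the 2 genes with the smallest p in each direction of each list in the first 2 comparisons, the marker with the highest mean CPM in each list, and the 2 genes nearest in profile (mean count of 50 or more); other names were added after their values were seen. Promoters are RefSeq's, on GRCm38.p6, and were read only as letters. Some genes of the lists are counted but not reported singly here.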

Additional observations from a re-analysis of the deposited data

Results flagged for a closer look

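In 7 of the 117 groups of 4 libraries examined, 1 library stood apart from the other 3 by Dixon's test, and chance alone gives about 1 in 20. Fasn was at 159 CPM in control replicate 2, with 52.2 to 59.6 CPM in the other controls. Abca1 was at 136 CPM in CKD replicate 1, against 129 to 130.0 CPM in the others. Stard4 was at 50.1 CPM in control replicate 3 (others 54.9 to 55.7 CPM), and Scap at 35.6 CPM in colchicine replicate 1 (others 31.2 to 32.0 CPM). Apoe was at 3425 CPM in CKD replicate 4 (others 3028 to 3046 CPM), and Lipa at 265 CPM in control replicate 4 (others 218 to 221 CPM). The 6 proximal tubule markers summed to 669 CPM in colchicine replicate 4 and to 333 to 387 CPM in the other colchicine libraries. Control replicate 2, the library apart in Fasn, also had the highest adipocyte marker sum, 51.0 CPM.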

How the results depend on the processing

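Of the 8 genes, the number called was 5 or 6 for CKD against control, 2 or 3 for colchicine against CKD and 5 or 6 for colchicine against control under every alternative run. Genes called between colchicine and CKD, 2682, numbered 1756 with the replicate block, 1008 with the slope on labelled adenine, 1181 with only the 2% colchicine library and 992 to 6401 with 1 library left out, and list genes 22, or 12 to 33. Replicate numbers did not pair the libraries (12 same-number pairs, correlations -0.279 to 0.189, 1 over 0.1); with the replicate block 6, 3 and 5 of the 8 genes were called, as without it. Library totals alone gave 13197 higher and 1850 lower genes for CKD against control, 13762 and 1953 for colchicine against control, 52 and 25 list genes (50 and 29 with colchicine) and 4 and 2 of the 8 (3 and 2); upper-quartile scaling gave 1764 and 1185 for colchicine against CKD (1212 and 1470 under TMM), 8134 and 4849 for colchicine against control, and 2 and 4 of the 8. Values that changed sign under library totals alone were, in CKD, Sqle 0.63, Srebf2 0.82, Fasn 0.46, Scap 0.36, Msmo1 0.74, Insig2 0.54, Scd1 0.55, Thrsp 0.57 and Acaca 0.67, and with colchicine against control, Sqle 0.29, Srebf2 0.98 and Fasn 0.88. Against control, Srebf2 was 0.14 and Fasn 0.02 with colchicine under upper-quartile scaling, and Fasn 0.23 with the adenine slope. Insig1 between colchicine and CKD was -0.01 under RLE scaling, limma-voom and DESeq2, -0.19 with the slope and -0.40 with only the 2% library, and Plin2 was 0.02 and 0.05 under the last 2. With 1 library left out, signs changed for Insig1 (-0.09 to 0.13), Srebf2 (-0.14 to 0.02) and Fasn (-0.34 to 0.36) in these comparisons, and in CKD for Pmvk (-0.02 to 0.15), Fdft1 (-0.04 to 0.14), Scd1 (-1.02 to 0.22) and Thrsp (-1.34 to 0.31). The cause was not tested. With only the 2% library, 1 library is assumed to vary like the other groups.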
